A study of Mus musculus with 4 samples.

Results

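The Hox genes of the mouse array were followed in lumbar spinal cord after a nerve injury. Members were non-control probes whose gene name was Hox, a cluster letter from a to d and a number, and 42 probes for 38 genes are described here, out of 55681 non-control probes for 34787 gene and transcript names. The samples were lumbar cord of male ICR mice, 8 weeks old, at day 10 after surgery: 2 mice with the L5 spinal nerve tied (spinal nerve ligation, SNL) and 2 sham mice in which that nerve was only laid bare. The protocol in the labels gives the tissue as L4 to L5 cord and the source label as L5 cord, and neither says which side was taken. Each mouse gave 1 single-colour array of Cy3-labelled RNA, so each test rests on 2 mice per group. ICR is an outbred stock, and no transgene or drug is named in the labels for either group.

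Hox genes encode homeodomain transcription factors that give cells a position along the head-to-tail axis. In mouse they lie in 4 clusters, and genes of the same paralogue number in different clusters are copies of one ancestral gene. Low numbers are first expressed in the hindbrain and neck and high numbers toward the tail, so that paralogues around 4 to 8 are known for the brachial cord, 9 for the thoracic cord and 10 and above for the lumbar and sacral cord, where they also set which muscles a motor neuron reaches. Hox proteins bind DNA with partners of the Pbx, Meis and Pknox families, and Polycomb and Trithorax complexes hold the clusters off or on.

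Of the 38 Hox genes, 34 were well above background on all 4 arrays and 4 on none, with no gene in between. The scanner software marks a spot in this way when its signal clears the local background and its noise. The 4 genes below this mark were Hoxb1, Hoxb13, Hoxc12 and Hoxc13. They sit at the ends of the paralogue series: Hoxb1 is a hindbrain gene and paralogues 12 and 13 pattern the tail end of the body. Of paralogues 1 to 3, 6 of 7 genes were well above background, against 12 of 12 for paralogues 4 to 7, 7 of 7 for paralogues 8 to 9 and 9 of 12 for paralogues 10 to 13. By cluster the counts were 10 of 10 for Hoxa, 8 of 10 for Hoxb, 7 of 9 for Hoxc and 9 of 9 for Hoxd. The tail-end genes Hoxa13, Hoxd12 and Hoxd13 were thus detected while Hoxb13, Hoxc12 and Hoxc13 were not. Over probes, 38 of 42 Hox probes (90.5%) were well above background on all 4 arrays, beside 71.8% of all non-control probes. Under a looser flag, a positive signal that differs from background, Hoxb1, Hoxb13 and Hoxc12 passed on 3 of 4 arrays each and Hoxc13 on none. Probes differ in how well they bind, so a missing signal holds for that probe only and sets no order of levels between genes. Whether the 4 transcripts are absent from the cord was not tested.

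**Figure D1:**
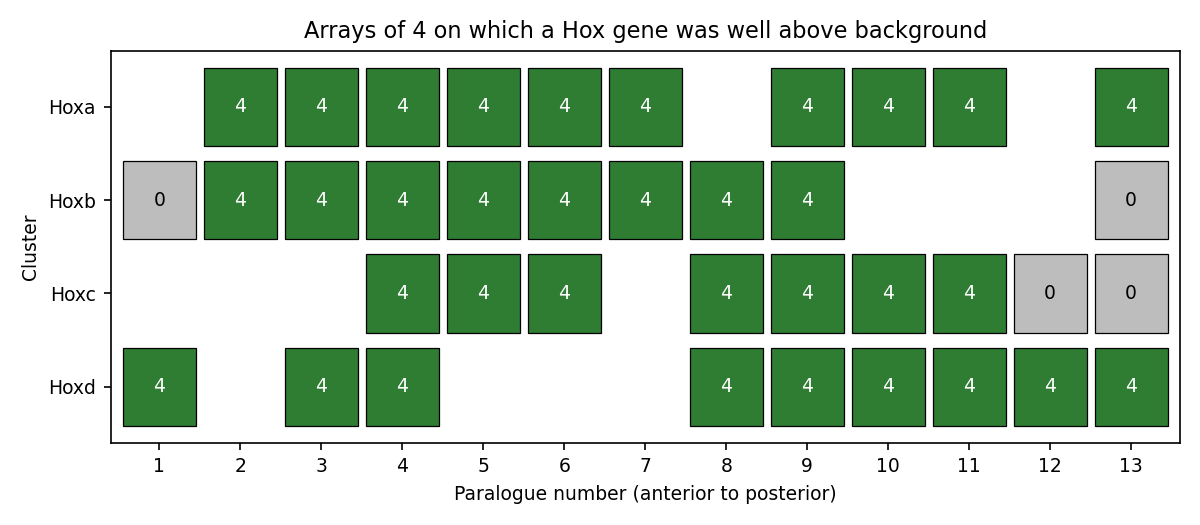
Each square is a described Hox gene, placed by cluster (rows) and paralogue number (columns), and the number in it counts the arrays, of 4, on which it was well above background. Green squares are the 34 genes at 4 of 4 and grey squares the 4 genes at 0 of 4, which are Hoxb1, Hoxb13, Hoxc12 and Hoxc13.

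The edge of detection in the Hoxc cluster lay between neighbouring genes, Hoxc11 (4 of 4 arrays) and Hoxc12 (0 of 4). Their probes are shown because they also share 11 bases, given in capitals, and no Hox probe shared a longer stretch with a probe of another Hox gene. The Hoxc11 probe is whole, and the first 30 bases of the Hoxc12 probe are given, with the positions of the whole probes on build mm9 as the files have them.
Hoxc11 (chr15:102787022-102787081, plus strand): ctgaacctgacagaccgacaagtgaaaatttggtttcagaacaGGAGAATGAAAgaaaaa
Hoxc12 (chr15:102768889-102768948, plus strand): aaccGGAGAATGAAAaagaaaagacttctg

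The other 3 genes without a detected probe are represented by these first 30 bases.
Hoxc13 (chr15:102759058-102759117, plus strand): actggctcattacaaaacagtgttcttttg
Hoxb1 (chr11:96228450-96228510, plus strand): ttgaattgaacttcctaagtaactgggctt
Hoxb13 (chr11:96057854-96057913, plus strand): aaatcgctttcatgagttgagctgattgtg

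The arrays themselves differed in ways that could touch the values below. On the SNL arrays 74.9% and 78.1% of spots were well above background, against 82.1% and 81.9% on the sham arrays. Sham replicate 2 stood apart in genes of peripheral nerve and coverings of the cord: the median of 7 Schwann cell genes was 0.35 and -0.57 in SNL mice and 0.42 and -3.85 in sham mice, on the log2 scale relative to each array's 75th percentile. The median of 10 meningeal and fibroblast genes was 1.89 and 0.94 in SNL mice and 1.60 and -0.37 in sham mice. The parts of these differences in the Hox values were not tested, and the values without sham replicate 2 are given below for the Hox genes with an unadjusted p under 0.05, for Hoxd10 and for HOTAIR.

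No Hox gene passed the test between SNL and sham mice. Of the 34 tested genes, 0 had an adjusted p under 0.05 (limma, Benjamini-Hochberg over 29303 genes), beside 0.171% of all genes tested (0.16% higher and 0.0102% lower). At an unadjusted p under 0.05, 3 Hox genes were lower in SNL mice, Hoxa4, Hoxd1 and Hoxd11, and 0 were higher, beside 5.48% of all genes lower and 6.67% higher. The count of lower Hox genes was 0 without sham replicate 1 and 1 without sham replicate 2, which was Hoxd1, and it was 4 without SNL replicate 1 and 5 without SNL replicate 2. Changes of 2-fold or more at that threshold were seen in 0 Hox genes in either direction, beside 1.91% of all genes higher and 0.706% lower. The log2 changes, SNL minus sham, ran between -0.81 for Hoxd1 and 0.28 for Hoxd12, with a median of -0.037 over the Hox genes and 0.028 over all genes tested. The Hox median was -0.098 without sham replicate 1 and 0.013 without sham replicate 2, so its sign changed when a single mouse was left out. For 27 of the 34 genes the change lay within 0.25 log2 units of 0, as it did for 66.6% of all genes. The 95% interval of the change excluded a 2-fold difference in either direction for 29 of the 34 Hox genes, beside 75.8% of all genes. The exceptions were Hoxa4, Hoxa6, Hoxa13, Hoxd1 and Hoxd12. In bulk cord, fewer cells of a type and less RNA per cell cannot be told apart.

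**Figure D2:**
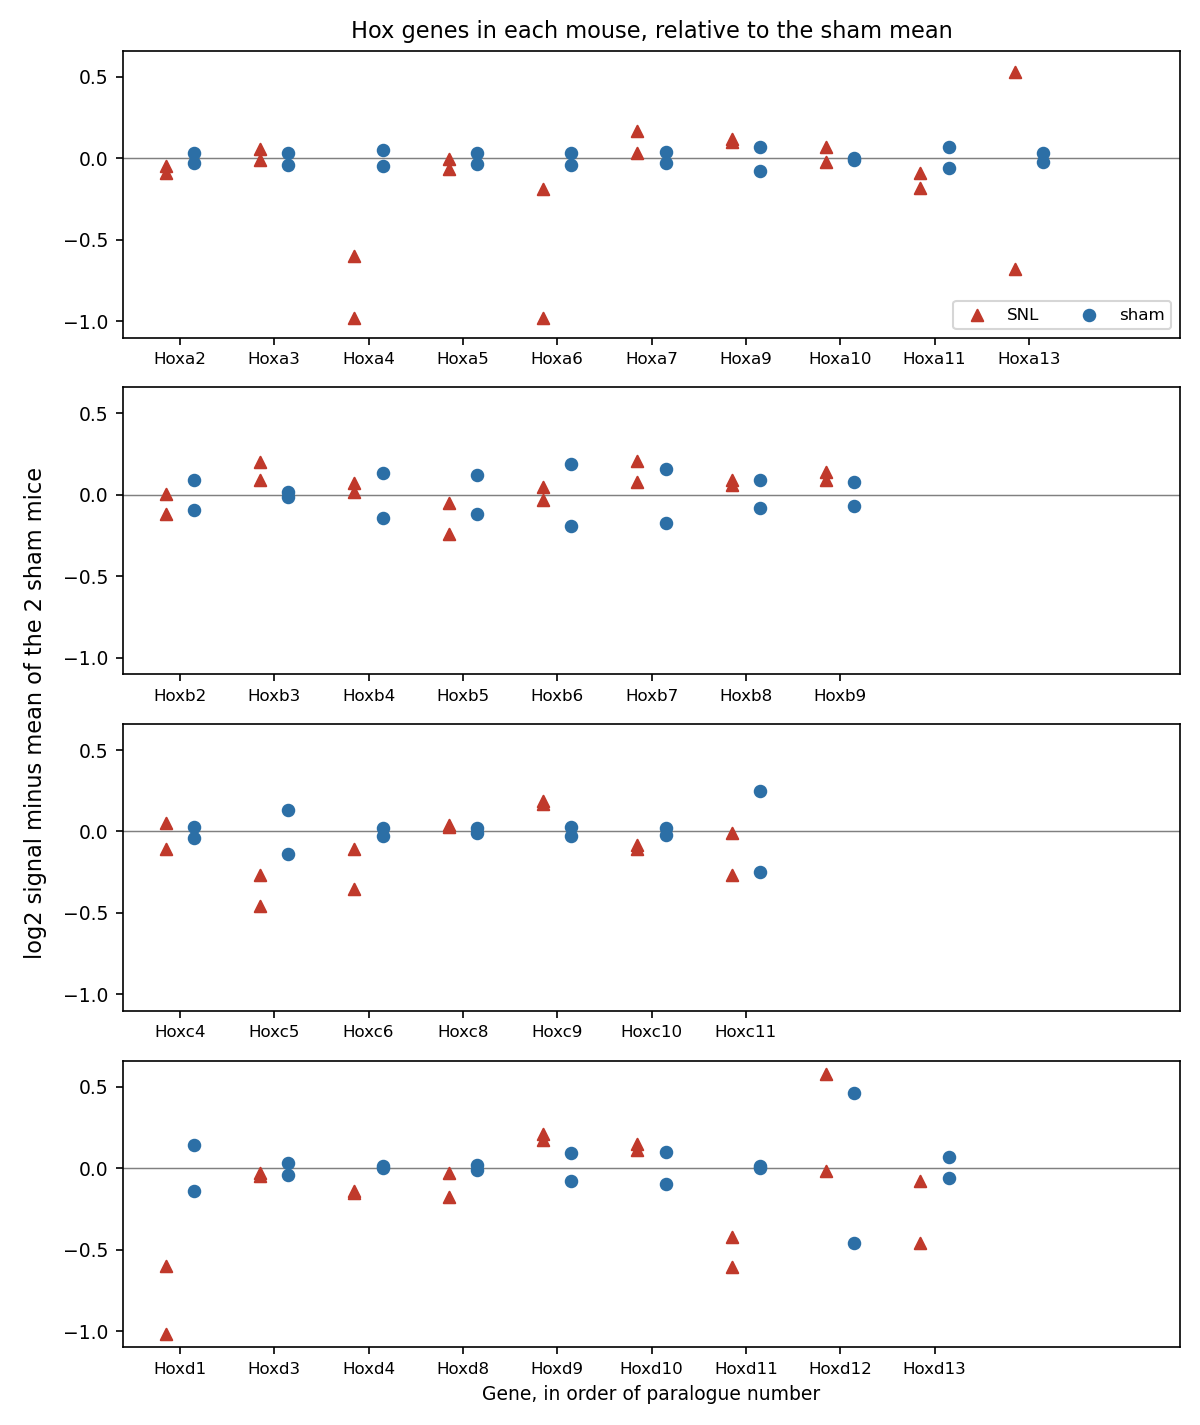
Each point is the log2 signal of a Hox gene in 1 mouse minus the mean of the 2 sham mice, with SNL mice as red triangles left of sham mice as blue circles, in 1 panel per cluster and in order of paralogue number. Both SNL mice lie below both sham mice for 12 genes, among them Hoxa4, Hoxd1 and Hoxd11, and above both for 7. Most genes other than Hoxa4, Hoxd1 and Hoxd11 lie within 0.25 of 0.

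Among the paralogue 1 to 3 genes, which pattern the hindbrain, Hoxd1 had the smallest p. Hoxd1, which in mouse is also known for wiring pain-sensing neurons, was at -3.42 and -3.84 in SNL mice and at -2.68 and -2.96 in sham mice, on the log2 scale relative to each array's 75th percentile (the scale of all levels below). Both SNL mice were lower than both sham mice, and SNL signal was 57.0% of sham signal (log2 change -0.81, SE 0.21, unadjusted p = 0.0201, limma adjusted p = 0.310). Without sham replicate 2 its log2 change was -0.95. Over 12 alternative settings, which include leaving out each mouse, it ran between -1.02 and -0.60. Hoxb3 was at 0.75 and 0.86 in SNL mice and at 0.65 and 0.68 in sham mice, the reverse order, with a log2 change of 0.14 (SE 0.097). Its second probe gave -0.085, so the direction for Hoxb3 was not shared by its probes. Hoxa2, Hoxa3, Hoxb2 and Hoxd3 had log2 changes of -0.074, 0.032, -0.056 and -0.039.

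The probes of the 3 genes with an unadjusted p under 0.05 are shown as their first 30 bases, since each of these values rests on a single spot per array and on 1 short stretch of the transcript. Of the Hoxd11 probes the second is the brighter one, which stands for the gene.
Hoxa4 (chr6:52140287-52140346, minus strand): atataatctagagacctggatcagtttctc
Hoxd1 (chr2:74603000-74603059, plus strand): ccacagggtaggtaaggattagaatctgaa
Hoxd11 probe 1 (chr2:74522136-74522195, plus strand): aaagaaaagaaactgaacagggaccgtctg
Hoxd11 probe 2 (chr2:74525014-74525073, plus strand): attaaacggcttttgtttaaaacagattag

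Among paralogues 4 to 7, known for the neck and forelimb levels of the cord, Hoxa4 had the smallest p of all Hox genes. It was at -4.99 and -4.61 in SNL mice and at -3.96 and -4.06 in sham mice. The groups did not overlap, and SNL signal was 57.8% of sham signal (log2 change -0.79, SE 0.17, unadjusted p = 0.0122, limma adjusted p = 0.262). The change was -0.84 without sham replicate 2, and it ran between -0.98 and -0.60 over the 12 alternative settings. Hoxa6 was at -1.51 and -2.30 in SNL mice and at -1.36 and -1.29 in sham mice. Its log2 change of -0.58 (SE 0.30) came mostly from SNL replicate 2, since without that mouse it was -0.19. Hoxc5 was at -1.63 and -1.44 in SNL mice and at -1.04 and -1.31 in sham mice, with a log2 change of -0.36 (SE 0.15, limma adjusted p = 0.475). Hoxc6, which marks forelimb level, was at 0.27 and 0.51 in SNL mice and at 0.64 and 0.59 in sham mice, with a log2 change of -0.23 (SE 0.13). Hoxd4 was at -1.15 and -1.14 in SNL mice and at -1.0 and -0.99 in sham mice, with a log2 change of -0.15 (SE 0.087). In all 5 of these, out of 12 in the band, both SNL mice were lower, beside 20.9% of all genes measured on the 4 arrays. These genes were printed for their small p, which favours groups that do not overlap, and none passed the adjusted test. The other 7 genes of this band, Hoxa5, Hoxa7, Hoxb4, Hoxb5, Hoxb6, Hoxb7 and Hoxc4, had overlapping groups and log2 changes between -0.15 and 0.14.

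Among paralogues 8 and 9, 6 of 7 log2 changes were above 0, with a median of 0.11, and all 7 lay within 0.25 of 0. Hoxc9, which represses forelimb-level Hox genes in thoracic motor neurons, was at 1.35 and 1.37 in SNL mice and at 1.15 and 1.21 in sham mice. Both SNL mice were higher, by 0.18 on the log2 scale (SE 0.090, limma adjusted p = 0.534). Hoxd9 was at 0.90 and 0.86 in SNL mice and at 0.61 and 0.78 in sham mice, with a log2 change of 0.19 (SE 0.11). Hoxa9, with log2 changes of 0.12 on each of 2 probes, and Hoxb9 and Hoxc8, at 0.11 and 0.032, also had both SNL mice above both sham mice. That held for 5 of the 7 genes, beside 24.9% of all genes measured on the 4 arrays. Hoxb8 overlapped between groups and had a log2 change of 0.073. Hoxd8 was the exception, with a log2 change of -0.11 and both SNL mice lower. This pattern depended on background correction, as the median of the band was 0.0019 with normexp correction and Hoxa9, Hoxb9 and Hoxd9 then lay below 0, at -0.031, -0.20 and -0.073. None of the 7 had an unadjusted p under 0.05.

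The paralogue 10 genes, which with Hoxd9 and the paralogue 11 genes set the identity of lumbar motor neurons, showed little difference. Hoxa10 was at 1.07 and 1.16 in SNL mice and at 1.09 and 1.08 in sham mice, which overlap, with a log2 change of 0.028 and a 95% interval of -0.24 to 0.29. Hoxc10 was at 1.24 and 1.27 in SNL mice and at 1.33 and 1.37 in sham mice, with a log2 change of -0.093 and an interval of -0.35 to 0.16. Hoxd10 was at 1.47 and 1.43 in SNL mice and at 1.22 and 1.42 in sham mice, with a log2 change of 0.13 and an interval of -0.19 to 0.46, and without sham replicate 2 its change was 0.23. All 3 intervals exclude a 2-fold difference either way.

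Further toward the tail, Hoxd11 had the smallest p. Its brighter probe was at 0.14 and 0.33 in SNL mice and at 0.76 and 0.75 in sham mice, and the SNL signal was 69.7% of the sham signal (log2 change -0.52, SE 0.11, unadjusted p = 0.0123, limma adjusted p = 0.262). The dimmer Hoxd11 probe, which lies upstream and was designed on another transcript record, gave -0.21. The gene's change was -0.37 when its probes were averaged, and -0.52 without sham replicate 2. Hoxd13, the last gene of its cluster, was at -4.99 and -4.61 in SNL mice and at -4.46 and -4.59 in sham mice, with a log2 change of -0.28 (SE 0.17). The SNL mice were the lower ones, though the nearest mice of the groups almost met. Hoxa11, whose probe was spotted 10 times on each array, was at 0.57 and 0.66 in SNL mice and at 0.82 and 0.69 in sham mice. Both SNL mice were the lower ones, by a log2 change of -0.14 (SE 0.11), and Hoxc11 had the same log2 change with an SE of 0.22. Hoxd12 was at -6.05 and -5.45 in SNL mice and at -6.49 and -5.57 in sham mice, so the groups overlapped. Hoxa13 was uneven between the SNL mice on the probe tested, at -3.14 and -1.93 in SNL mice and at -2.48 and -2.43 in sham mice, with an SE of 0.46. The second Hoxa13 probe had a log2 change of -0.062 with an SE of 0.10.

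**Figure D3:**
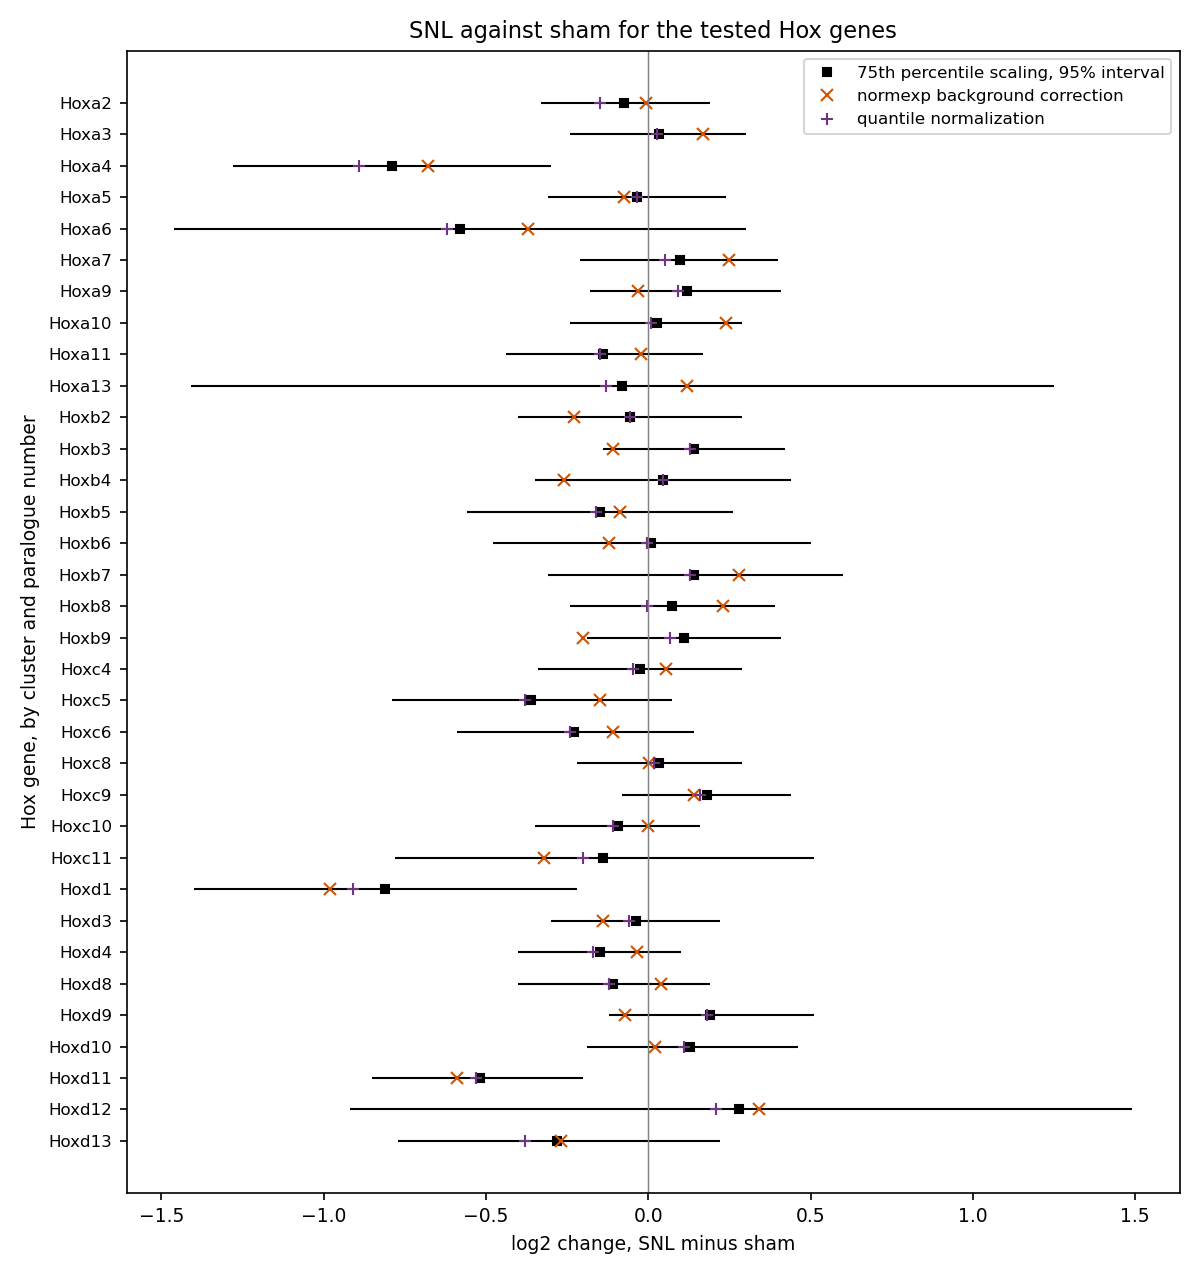
Each row is a tested Hox gene in order of cluster and paralogue number, and the axis is the log2 change, SNL minus sham, with black squares and lines for the estimate and its 95% interval. Orange crosses and purple plus signs are the changes after normexp background correction and after quantile normalization: Hoxa4, Hoxd1 and Hoxd11 stay below 0 under both, while Hoxb9 and Hoxd9 lie below 0 with normexp.

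Arranged by cluster, the medians of the log2 change were -0.054 for Hoxa, 0.059 for Hoxb, -0.093 for Hoxc and -0.11 for Hoxd, against 0.028 for all genes tested. By paralogue number they were -0.047 for 1 to 3, -0.092 for 4 to 7, 0.11 for 8 to 9 and -0.093 for 10 to 13. The sign of the Hoxb median was turned by normexp correction, to -0.12, and that of Hoxc became 0.0073 without sham replicate 2, as that of paralogues 1 to 3 became 0.017, so the clusters had no stable order. Groups did not overlap for 19 of 34 genes, 7 with both SNL mice higher and 12 with both lower, where 45.8% of all genes measured on the 4 arrays did so (24.9% and 20.9%).

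Other transcripts inside the Hox clusters were read from probes placed between the outermost Hox probes of a cluster or up to 20 kb outside. Of 24 such names 22 were tested, with a median log2 change of -0.058, and 0 passed the adjusted limma test, while 1 was higher and 2 were lower at an unadjusted p under 0.05, beside 6.67% of all genes higher and 5.48% lower. These shares are near those of all genes. The names are not all separate transcripts, as Gm53 and a long intergenic RNA have probes at the same position, with log2 changes of 0.20 and 0.18. Evx2 is also counted in the list of Evx and Dlx genes below. The smallest p belonged to HOTAIR, a long noncoding RNA read from the strand opposite to the Hoxc genes and known, from human cells, for its ties to Polycomb. Its 5 probes lie between those of Hoxc12 and Hoxc11, which were the undetected and the detected gene at the edge described above. The brightest probe was at -3.05 and -2.94 in SNL mice and at -2.34 and -1.73 in sham mice. Both SNL mice were lower, at 51.4% of the sham signal (log2 change -0.96, SE 0.25, unadjusted p = 0.0212, limma adjusted p = 0.315). All 5 probes were well above background on all 4 arrays and gave log2 changes between -0.98 and -0.79, but they read the same transcript in the same 4 mice and are not independent. The sham mice differed from each other, and the change was -0.65 without sham replicate 2 and -1.27 without sham replicate 1. The brightest probe and the one with the lowest change, -0.98, are given whole.
HOTAIR, brightest probe (chr15:102775005-102775064, minus strand): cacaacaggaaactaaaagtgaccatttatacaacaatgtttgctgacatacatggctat
HOTAIR, probe with the lowest change (chr15:102774643-102774702, minus strand): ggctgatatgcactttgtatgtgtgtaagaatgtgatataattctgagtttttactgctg

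Of the Hoxc genes on the Hoxc11 side of HOTAIR, Hoxc11 and Hoxc10 had log2 changes of -0.14 and -0.093, and Hoxc12, on its other side, was not tested. In the Hoxd cluster a transcript described as RIKEN 6720416L17, on the strand opposite to the Hoxd genes and between the probes of Hoxd3 and Hoxd1, was at -1.32 and -1.61 in SNL mice and at -0.91 and -1.04 in sham mice. Both SNL mice were lower (log2 change -0.49, SE 0.15, limma adjusted p = 0.356). In the Hoxb cluster a probe without annotation, A_55_P1998848, was at 3.23 and 3.20 in SNL mice and at 2.85 and 2.95 in sham mice, with a log2 change of 0.31 (SE 0.095). Next by p were 9530018H14Rik in the Hoxa cluster at -0.25, a long intergenic RNA on the reverse strand of the Hoxb cluster at 0.31, and a further Hoxa3 transcript, listed by its Ensembl number only, at 0.32. The antisense RNAs Hoxa11os, Hoxaas3 and Hoxd3os1 had log2 changes of -0.026, -0.37 and -0.056, and Hottip, at the tail end of the Hoxa cluster, was not well above background on any array.

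**Figure D4:**
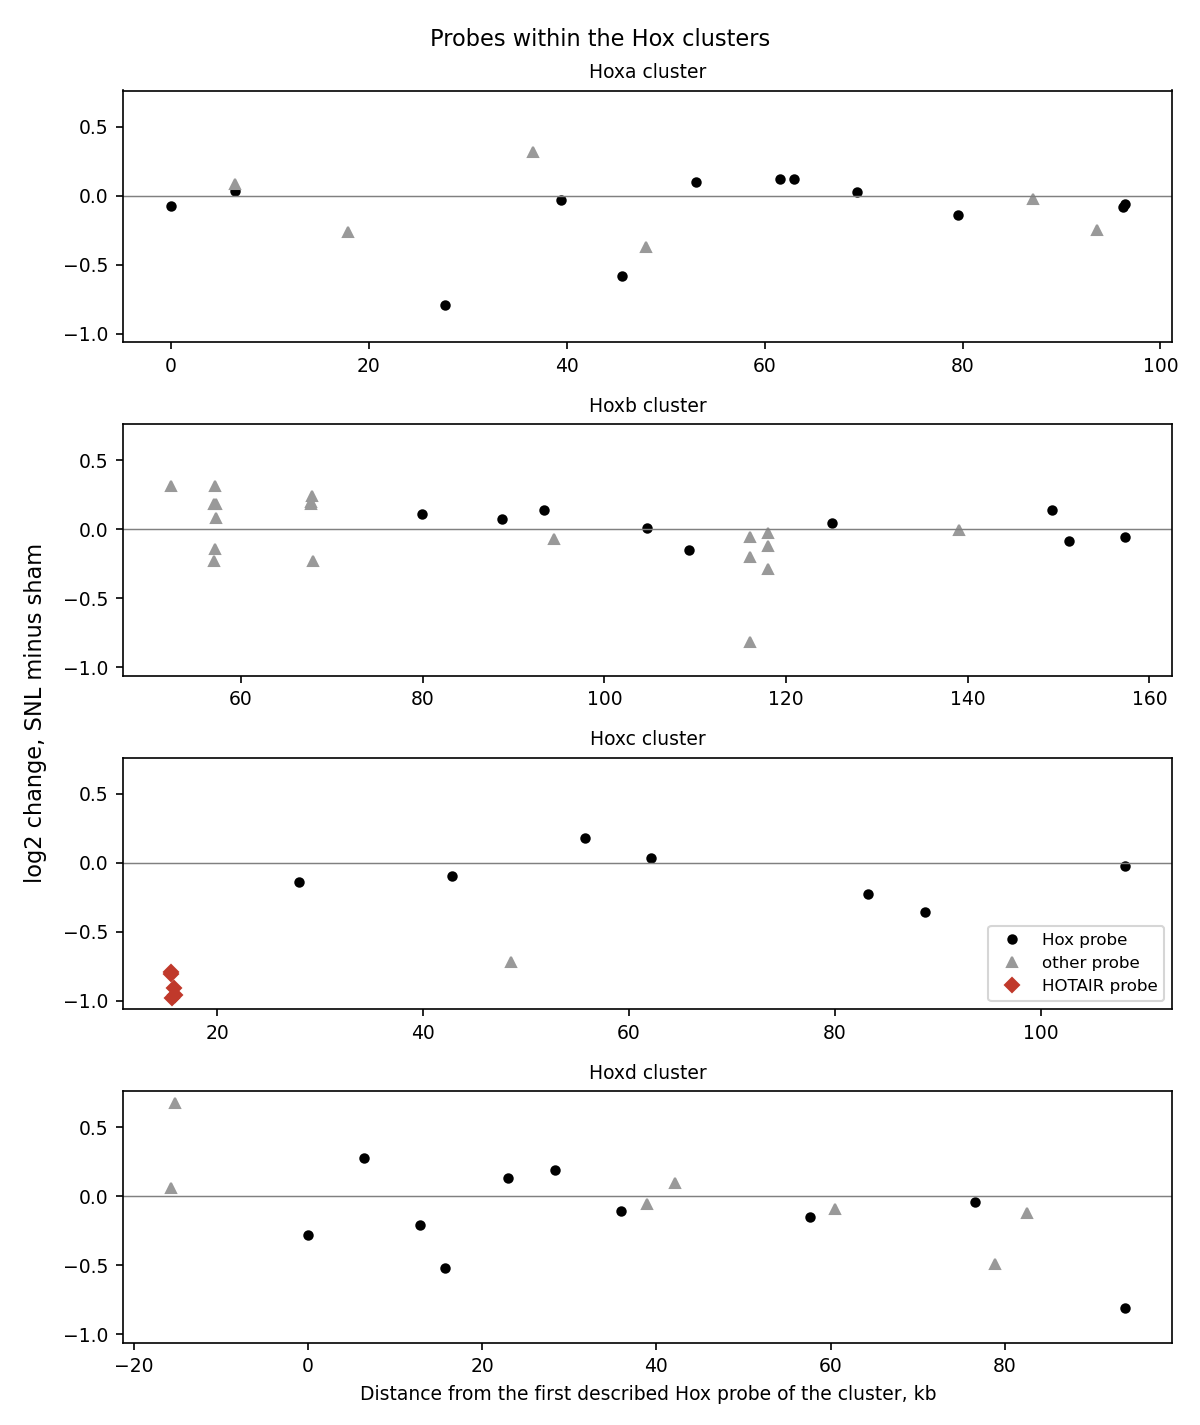
Each point is a tested probe, placed by its distance in kb from the first described Hox probe of its cluster, and the vertical axis is its log2 change, SNL minus sham. Black circles are Hox probes, grey triangles other probes and red diamonds the 5 HOTAIR probes, which lie between -0.98 and -0.79, below the nearest tested Hox probe (Hoxc11 at -0.14).

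Promoter sequence from RefSeq (build GRCm38.p6) was matched by symbol for 22 of the 38 Hox genes, with 24 promoters, and the 250 bases before each start were read. Their median GC content was 58.6%, against 52.4% for all 32851 promoters, and the median number of CpG pairs 12.5, against 6. The motif TGATNNAT, which Hox and Pbx proteins bind together, was found on either strand in 16.7% of the Hox promoters, against 7.68% of all. CCAAT on either strand was in 58.3%, against 33.8%, and TATAAA on either strand in 16.7%, against 12.4%. A match describes the letters in this window and is not evidence of a bound site. Of the 3 genes with an unadjusted p under 0.05, Hoxd1 and Hoxd11 were in the table, and their promoters are printed with CpG in capitals because they differ widely in CpG number, with 24 for Hoxd1 and 2 and 20 for the Hoxd11 promoters.
Hoxd1 (chr2:74762730-74762979, plus strand): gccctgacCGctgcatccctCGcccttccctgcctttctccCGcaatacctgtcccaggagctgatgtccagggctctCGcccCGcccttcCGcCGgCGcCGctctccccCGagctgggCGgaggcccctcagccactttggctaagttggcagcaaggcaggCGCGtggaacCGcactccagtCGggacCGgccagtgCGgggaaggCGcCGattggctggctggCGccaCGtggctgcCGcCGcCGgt
Hoxd11 (chr2:74679308-74679557, plus strand): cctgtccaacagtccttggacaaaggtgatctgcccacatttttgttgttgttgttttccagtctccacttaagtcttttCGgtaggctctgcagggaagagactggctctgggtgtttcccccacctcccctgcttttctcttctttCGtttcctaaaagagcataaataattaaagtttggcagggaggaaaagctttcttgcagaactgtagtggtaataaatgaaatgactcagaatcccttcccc
Hoxd11 (chr2:74682073-74682322, plus strand): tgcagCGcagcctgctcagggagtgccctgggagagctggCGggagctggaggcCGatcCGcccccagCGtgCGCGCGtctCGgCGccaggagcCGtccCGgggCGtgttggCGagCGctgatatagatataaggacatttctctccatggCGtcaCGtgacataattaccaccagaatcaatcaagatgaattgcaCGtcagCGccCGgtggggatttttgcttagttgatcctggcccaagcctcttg

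No partner of the Hox proteins passed the test. All 9 Pbx, Meis and Pknox genes were tested, with a median log2 change of 0.070 and 0 calls at either threshold. Pknox2 was at 0.71 and 0.75 in SNL mice and at 0.93 and 1.13 in sham mice (log2 change -0.31, SE 0.12), Pbx4 had a log2 change of 0.23, Meis1 of 0.14 and Pbx2 of 0.099. Of the 22 tested regulators of the clusters, which include the Polycomb and Trithorax subunits, 0 passed the adjusted test and 1 was higher at an unadjusted p under 0.05, beside 6.67% of all genes, with a median of -0.029. That gene was Cbx2, a Polycomb subunit that reads methylated histone H3, at -2.54 and -2.66 in SNL mice and at -3.00 and -3.30 in sham mice (log2 change 0.55, SE 0.15, limma adjusted p = 0.332). Phc1, Cbx7 and Kmt2b had log2 changes of -0.30, 0.18 and 0.15. Among 11 tested genes of the signals that set the Hox domains in the embryo, 0 passed the adjusted test, 2 were higher and 2 lower at an unadjusted p under 0.05, beside 6.67% and 5.48% of all genes, and the median was 0.11, while Cdx2 and Cdx4 were not tested. Cyp26a1, an enzyme that breaks down retinoic acid, stood out in value at -1.77 and -2.90 in SNL mice and at -6.61 and -7.04 in sham mice, with a log2 change of 4.49 (SE 0.46, limma adjusted p = 0.111). Cyp26b1, of the same function, had a log2 change of 0.63. The retinoic acid receptor Rara and the ligand Gdf11 had log2 changes of -0.43 and -0.38, with both SNL mice below both sham mice. The Evx and Dlx homeobox genes, which lie on the chromosomes of the Hox clusters at varying distances, had a median of 0.061 over 7 tested genes. There were 0 calls at either threshold, with Dlx6 at -0.21, Dlx3 at 1.41 (SE 0.74), Dlx4 at -0.71 (SE 0.39) and Evx1 at -0.18. Dlx3 was uneven between the SNL mice, at -2.81 and -4.78, and was at -5.15 and -5.27 in sham mice.

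Homeobox genes outside the clusters held the only call in these lists. Of 24 tested homeobox genes of cord neurons and progenitors, 1 was called lower and 0 higher, 6 were lower and 1 higher at an unadjusted p under 0.05, and the median was 0.064. Over all genes 0.0102% were called lower, and 5.48% were lower and 6.67% higher at that unadjusted p. Mnx1, a homeobox gene of motor neurons, was at -7.05 and -7.26 in SNL mice, where it was not well above background, and at -2.80 and -3.16 in sham mice. It entered the test through the sham arrays alone, so that a difference was built into its selection. SNL signal was at least 15.6-fold lower, taking as floor on each SNL array the higher of the probe's own signal and the dimmest signal well above background (limma adjusted p = 0.041). This call was lost with quantile normalization, with the replicate number as a block and when any 1 mouse was left out. Isl2, also of motor neurons, was at -0.33 and -0.28 in SNL mice and at 1.08 and 0.86 in sham mice (log2 change -1.27, SE 0.12, limma adjusted p = 0.0973). Irx3 and Nkx2-2, which take part in patterning the ventral cord, had log2 changes of -0.60 and -0.44. The 1 gene higher at an unadjusted p under 0.05 was En1, with a log2 change of 1.61 (SE 0.34, limma adjusted p = 0.258). Of the 24 genes, 14 had a log2 change above 0.

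Cell type markers were read beside these results, since the Hox genes are expressed in many cord cells. Of 23 tested motor neuron genes 2 were called lower, Chodl and Mnx1 (also in the homeobox list), and the median was -0.34. Mnx1 entered the test through the sham arrays alone, so a difference was built into its place in this count and the next. At an unadjusted p under 0.05, 11 were lower and 1 was higher, Gfra1 with a log2 change of 1.04. Over all genes 0.0102% were called lower, and 5.48% were lower and 6.67% higher at that p. Both SNL mice were lower for 12 of these genes and higher for 2, beside 20.9% and 24.9% of all genes measured on the 4 arrays. Groups overlapped for the other 9, such as Isl1 at -0.022 and Prph at 0.078. With quantile normalization, with the replicate number as a block and without any 1 mouse, 0 of all genes were called lower, so both calls were lost there. Chodl was at -2.73 and -2.79 in SNL mice and at 1.18 and 0.97 in sham mice. All 12 microglia genes were higher in both SNL mice than in both sham mice, with a median of 0.65, and 10 had an unadjusted p under 0.05, beside 24.9% of all genes with both SNL mice higher and 6.67% higher at that p. The medians for neurons, astrocytes and oligodendrocytes were 0.076, 0.057 and 0.031, and those for endothelial and mural cells, ependymal cells and sensory ganglia were -0.24, 0.34 and 0.12. Of 10 endothelial and mural genes, 8 had both SNL mice lower and 0 both higher, beside 20.9% and 24.9% of all genes. At an unadjusted p under 0.05, 2 of them were lower and 0 higher, beside 5.48% and 6.67%. The ependymal medians of the sham mice differed, at -1.96 and -0.73, beside -1.53 and -0.93 in SNL mice. All 15 neuron, 9 astrocyte and 11 oligodendrocyte genes were detected and tested, and Scn10a and Mrgprd of sensory ganglia were not. The part of cell content in the Hox values was not tested.

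**Figure D5:**
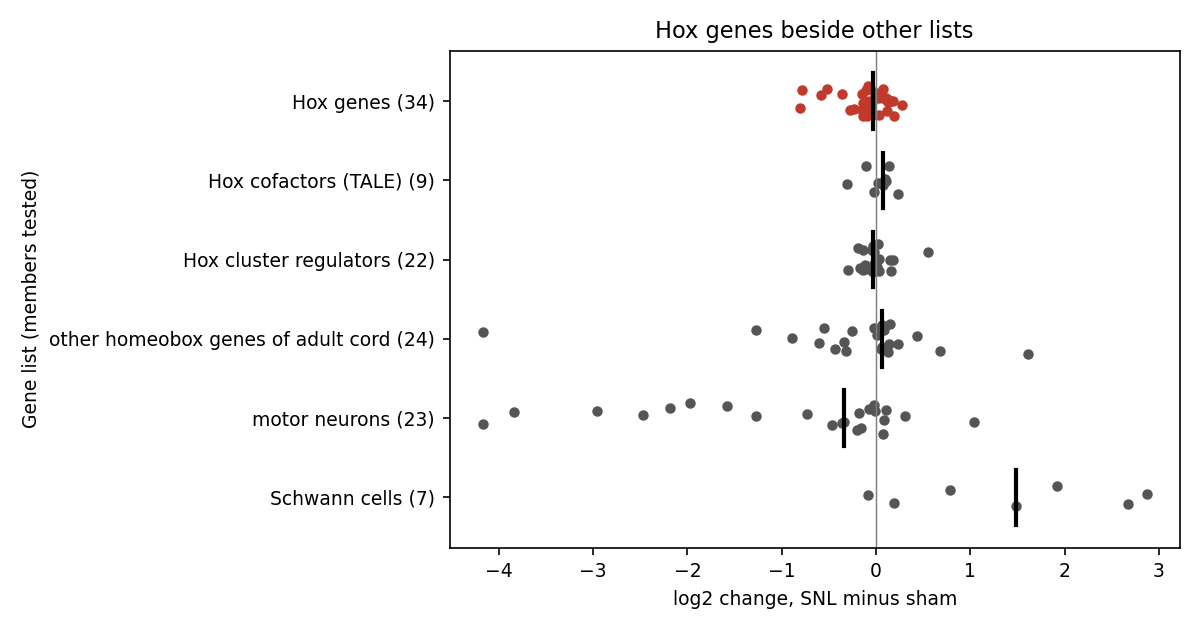
Each point is the log2 change, SNL minus sham, of a tested gene, in rows for the Hox genes (red) and 5 other lists (grey) with the number tested in brackets, and the black bar is the median of the list. The Hox genes lie between -0.81 and 0.28, while Chodl, of the motor neuron genes, lies at -3.84. The lowest point in 2 rows is Mnx1, drawn at its measured value although its SNL signal is only a bound, and the Schwann cell genes, which sham replicate 2 sets apart, have a median of 1.48.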

How the data were processed

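Cy3-labelled RNA of 4 cords was hybridised to single-colour Agilent arrays, per the labels' protocols. The deposited scanner files hold linear spot intensity, made with Agilent Feature Extraction 10.7.3.1 per the file headers, which differs from 10.7.1.1 per the submitters' processing notes, and give probe positions on mm9. The processed signal is background-subtracted, with surrogates for dim spots. The authors' deposited table of log2 values was an alternative: its columns followed the scanner values (r rounds to 1), shifted by 0.122 to 0.132 in the median and not centred per gene. Its column medians were -3.48 and -3.33 for SNL and -3.45 and -3.52 for sham, and its direction is brighter as higher. Over which spots its percentile was taken stays unknown.

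Here the 75th percentile of 59305 non-control spots was subtracted from the log2 processed signal on every array. Flagged outlier spots were left out and spots of a probe averaged. A probe was tested if it passed the well-above-background flag on 2 or more arrays, and the brightest such probe stood for its gene. SNL was compared with sham by lmFit and eBayes in limma 3.58.1 (R 4.3.3), with Benjamini-Hochberg adjustment over 29303 genes, 2 residual and 1.65 prior degrees of freedom. For 300 genes an array was missing. The labels count 2 mice per group, so the replicates are separate animals. With 2 against 2, an exact two-sided permutation test cannot go below 0.333, so none is given. Precision is limited by having 4 arrays, with a median SE of 0.13. Same-numbered mice did not deviate together (r = -0.0273 over 29003 genes). This single correlation cannot exclude a pairing, and the numbers are not known to pair mice.

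Values per mouse were printed for Hox genes called and the 12 with the smallest p. Up to 4 genes of each pathway list, called or non-overlapping with the smallest p, were also printed. So were the 6 transcripts of the clusters with the smallest p. Many genes of these lists and some of these transcripts were given by their log2 change only. Others that are named, such as the antisense RNAs, were chosen after their values were seen. A few items are not reported here. The Hox members and the lists (Hox partners, cluster regulators, upstream signals, Evx and Dlx genes, other homeobox genes and cell type markers) were chosen with earlier results of these data known. The script was tested on simulated data with known changes.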

Additional observations from a re-analysis of the deposited data

How the results depend on the processing

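With 2 mice per group, 0 Hox genes passed the adjusted limma test under all 12 alternatives run. Of the 408 Hox log2 changes under alternatives, 379 kept their direction. All 36 of Hoxa4, Hoxd1 and Hoxd11 did, but these genes were picked for their p in the same 4 arrays. Their groups did not overlap, so leaving out 1 mouse could not turn their sign. The cause of the changes below was not tested. Normexp correction turned Hoxa9 to -0.031, Hoxa13 to 0.12, Hoxb3 to -0.11, Hoxb4 to -0.26, Hoxb6 to -0.12, Hoxb9 to -0.20, Hoxc4 to 0.055, Hoxc10 to 2.2e-05, Hoxd8 to 0.039 and Hoxd9 to -0.073. It moved the median log2 changes of Hoxa, Hoxb and Hoxc to -0.014, -0.12 and 2.2e-05, of paralogues 1 to 3 and 8 to 9 to -0.13 and 0.0019, of the cluster regulators to 0.079, of the upstream signals to 0.29, of the Evx and Dlx genes to -0.18, of the other homeobox genes to -0.018 and of the other transcripts to 0.014. Quantile normalization turned Hoxb6 to -0.005 and Hoxb8 to -0.0027, moved the medians of Hoxa and of the other transcripts to -0.08 and -0.11, and left 0 of the other homeobox genes called. The calls over all genes, 47 higher and 3 lower, became 119 and 14 with normexp, 11 and 0 with quantile normalization, 1132 and 87 with no filter on dim probes, and 422 and 117 with trend and robust estimation. They were 5 lower with probes well above background on all 4 arrays, where the median of the Evx and Dlx genes was -0.059, that of the other transcripts -0.026, and 0 of the other homeobox genes were called, since Mnx1 was then not tested. Averaging a gene's probes moved the median of the other transcripts to -0.081. With no filter 1 upstream signal and 2 other homeobox genes were called, and with trend and robust estimation 1 and 3, and 1 Hox gene, Hoxc9, was higher at an unadjusted p under 0.05. With the positive-and-significant flag 1 Hox gene was detected on no array.

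The replicate block, whose numbers are not known to pair mice, left 0 genes called in either direction and 0 other homeobox genes. With it, 3 Hox genes were lower at an unadjusted p under 0.05. As all arrays share 1 slide and 1 scan, neither could be used as a block. Leaving out 1 mouse at a time, with the lone mouse assumed to vary like the other group, gave 0 calls over all genes and 0 other homeobox genes, and between 0 and 5 Hox genes lower and 0 and 1 higher at an unadjusted p under 0.05. The median of the Hox genes then ran between -0.098 and 0.013, of Hoxa between -0.079 and -0.002, of Hoxb between -0.059 and 0.17, of Hoxc between -0.11 and 0.0073, of paralogues 1 to 3 between -0.087 and 0.017, of paralogues 4 to 7 between -0.17 and -0.015 and of paralogues 8 to 9 between 0.042 and 0.18. That of the Hox partners ran between -0.017 and 0.14, of the upstream signals between 0.014 and 0.22, of the Evx and Dlx genes between -0.17 and -0.0056, of the other homeobox genes between -0.064 and 0.10 and of the other transcripts between -0.08 and -0.0054. Among Hox genes that changed sign when a mouse was left out, Hoxa3 ran between -0.0027 and 0.067, Hoxa5 between -0.07 and 0.0012, Hoxa10 between -0.014 and 0.07, Hoxa13 between -0.69 and 0.53, Hoxb2 between -0.15 and 0.037, Hoxb4 between -0.096 and 0.18. Further, Hoxb6 ran between -0.18 and 0.20, Hoxb7 between -0.022 and 0.31, Hoxb8 between -0.016 and 0.16, Hoxc4 between -0.11 and 0.056, Hoxc11 between -0.39 and 0.11 and Hoxd12 between -0.18 and 0.75. The values of HOTAIR under the alternatives were added after seeing the data.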
